A study of Homo sapiens with 2 samples.

Results

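The 10 genes described here encode the core of cytosolic nucleic acid sensing. They were taken by name: every probe annotated to RIGI, IFIH1, DHX58, MAVS, CGAS, STING1, TREX1, TBK1, IRF3 or IRF7 was used, which gave 13 probes for 10 of the 20046 named genes on the array. The samples were RNA of wild-type MHH-ES-1 cells, a human line established from Ewing sarcoma, and RNA of a radiation-adapted derivative of it. The short name of the adapted sample carries a dose of 4 Gy. No label gives the schedule of irradiation, the time between the last dose and RNA extraction, or whether the derivative is a clone or a pool. Each line was measured on 1 Illumina bead array, so the number of arrays limits the precision, the variation from culture to culture is unknown, and no test was possible.

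Cells detect foreign or misplaced nucleic acid in the cytosol through a pair of converging routes. RIG-I (RIGI) and MDA5 (IFIH1) are helicases that bind viral-type RNA and signal through MAVS on mitochondria, with LGP2 (DHX58) as a regulatory relative. cGAS (CGAS) binds DNA and makes a cyclic dinucleotide that activates STING (STING1), and the exonuclease TREX1 removes cytosolic DNA. Both routes activate the kinase TBK1, which phosphorylates the transcription factors IRF3 and IRF7 and so switches on type I interferon genes. RIGI, IFIH1, DHX58 and IRF7 are also known as interferon-inducible genes, so the pathway can raise its own sensors. Ionizing radiation is a known source of cytosolic DNA and RNA in tumour cells.

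The arrays were alike in median bead signal, at 140.3 for wild-type and 142.4 for adapted cells, and 34.3% and 37.4% of 47323 probes were detected. Since most probes were not detected, that median describes the background and not the detected genes. Without scaling between arrays, the detected genes had a median log2 difference of 0.23 toward the adapted array. A probe was called detected when its detection p-value, which compares it with the negative controls of its own array, was under 0.01. Of 9 Ewing sarcoma markers with a named probe, 9 were detected on both arrays, among them CD99 and NKX2-2. Of 13 leukocyte markers with a probe, 6 were detected. The defining leukocyte genes PTPRC and CD3E were not detected at any of their 5 probes. The summed signal of the leukocyte list above the array median was 22400 in wild-type and 1605 in adapted cells, most of it from the integrin gene ITGB2 (10563.9 and 641.7 at the probe used). Of these genes 4 were at least 2-fold lower and CD68 went both ways (3.44-fold higher at the probe used, a ratio of -2.07 at another), and their part in the results below was not tested. Of 8 fibroblast markers, 7 were detected, with THY1 (at least 27.8-fold) and COL1A1 (7.92-fold) higher, and DCN (at least 11.7-fold), LUM (at least 5.66-fold) and PDGFRB (2.86-fold) lower, and the summed signal went from 1401 to 2345. The 6 endothelial and 6 epithelial markers had 1 detected gene each, CLDN5 (7.63-fold higher) and KRT8 (at least 4.40-fold lower), while PECAM1, CDH5 and EPCAM were not detected. The summed signals went from 60.1 to 747.0 and from 146.9 to 16.5. The part of these lists in the results was not tested either.

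Ratios below are adapted minus wild type on the log2 scale after background correction and quantile normalization. Of the 10 genes, 8 were detected on at least 1 array, and 2 of the 8, IFIH1 and IRF7, were at least 2-fold higher in the adapted cells. None of the 8 was at least 2-fold lower. Over all 11352 named detected genes, 12.4% passed the 2-fold rule upward and 10.3% downward. The median of the 8 was 0.01, against -0.01 for all genes. Among 8 genes a count of 2 is near the background share and is no result about the set. In bulk RNA, a change in the share of cells that express a gene and a change of RNA per cell cannot be told apart.

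**Figure D1:**
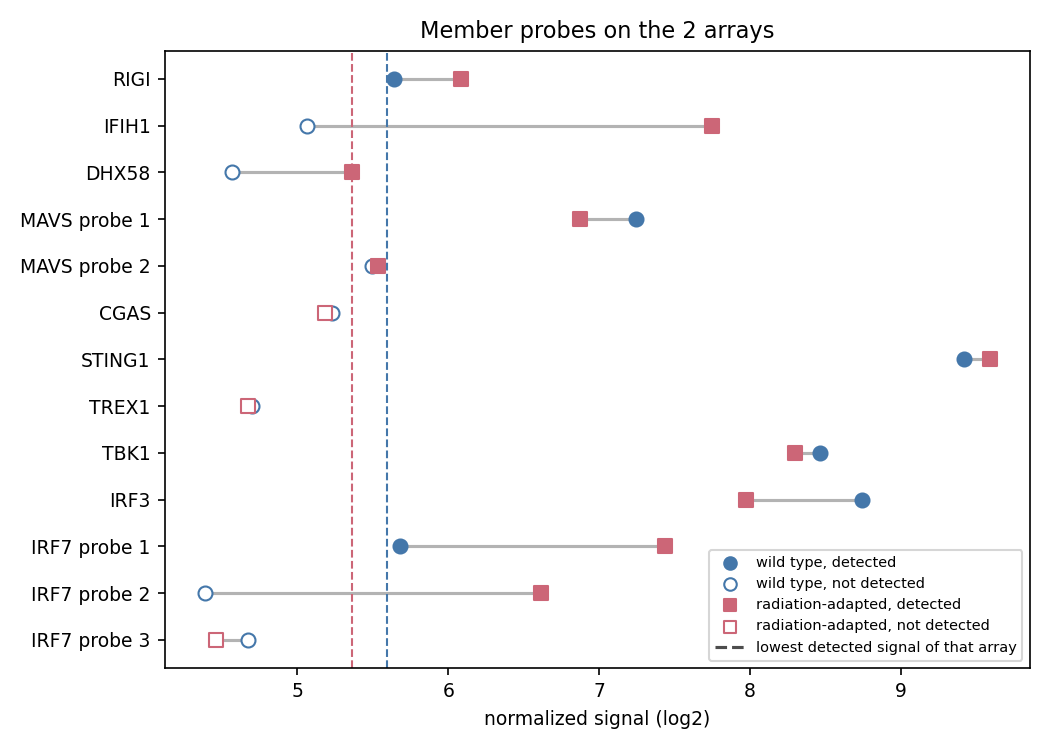
Normalized signal (log2) of the 13 probes on the wild-type array (blue circles) and the radiation-adapted array (red squares), with 1 array per group and therefore no error bars. Filled symbols are detected and open symbols are not, and the dashed lines mark the lowest detected signal of each array (5.60 and 5.36). IFIH1 and probes 1 and 2 of IRF7 show the long gaps, all toward the adapted array.

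Among the RNA sensors, IFIH1 differed most. Its probe gave a bead signal of 145.0 in wild-type cells, where it was not detected (detection p-value 0.0844), and 353.3 in adapted cells. MDA5, its product, recognizes long RNA duplexes. Since the wild-type value is not well above background, only a bound can be given: IFIH1 was at least 4.44-fold higher in the adapted cells (log2 bound 2.15). The values as measured differ by 2.68. Of 9188 genes measured on both arrays, 152 (1.65%) had a ratio above that bound. IFIH1 is not one of the 9188, and the 1532 genes detected, like it, in adapted cells only are left out of this rank. IFIH1 stayed above 2-fold in each of the 9 alternative settings that gave a value. The bounds ran from 1.01 to 2.465, and without a detection filter the value was the difference as measured, 2.68.

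The promoter of IFIH1 is shown because it holds the letters that interferon-activated factors and IRF proteins are known to bind. The interferon-stimulated response element (ISRE) was searched on both strands, as GAAA followed by any 2 bases and a further GAAA, or TTTC spaced in the same way from TTTC, in the 250 bases before each gene's start in the RefSeq table (build GRCh38.p14). The IFIH1 promoter has a site 21 to 12 bases before the start (chr2:162318685-162318730, minus strand) and a pair of overlapping matches 159 to 144 bases before it (chr2:162318803-162318868, minus strand). Capitals mark the matching letters, and flanks are up to 25 bases.
IFIH1, near the start: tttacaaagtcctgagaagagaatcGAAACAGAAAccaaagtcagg
IFIH1, upstream: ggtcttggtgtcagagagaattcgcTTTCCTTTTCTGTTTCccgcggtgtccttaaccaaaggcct
Such a match was found in 3.02% of 35116 promoters. The table held promoters of 5 of the 10 genes, and the others with one, RIGI, MAVS, TREX1 and TBK1, do not have these letters in this window. A match is a description of sequence and was not tied to binding here.

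RIGI was close to background on both arrays. Its signal was 159.5 in wild-type cells (detection p-value 0.00779) and 190.6 in adapted cells. The ratio of 0.44, or 1.36-fold higher, is less than the 0.45 SD of the ratio between different probes of 1 gene (from 2269 genes that had more than 1 such probe), which covers differences between probes and not between cultures. It lay between 0.15 and 0.77 over 10 alternative settings. RIG-I is known to recognize RNA that carries a 5′ triphosphate.

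DHX58 was not detected in wild-type cells, with a signal of 128.0, and just passed detection in adapted cells, with 158.1 and a detection p-value of 0.00909. Its adapted value (log2 5.36) is the lowest detected signal of that array. No fold can be given, because the wild-type detection level (5.60) lies above it. The difference as measured was 0.79, between values at the edge of detection.

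The adaptor of the RNA route differed little. MAVS gave a signal of 248.9 in wild-type and 245.1 in adapted cells at its brighter probe, a ratio of -0.38, or 1.30-fold lower. Its other probe gave 155.6 and 164.6 and was detected in adapted cells only. It carries no fold, because its adapted value lies below the wild-type detection level. Neither probe was past 2-fold, and the brighter one lay between -0.38 and -0.04 over 10 alternative settings.

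On the DNA route, the adaptor gene was well detected and the sensor gene was not. STING1 had a signal of 754.2 in wild-type and 933.0 in adapted cells, a ratio of 0.18 (1.13-fold higher) that stayed between 0.15 and 0.36 over 10 alternative settings. CGAS gave 149.1 and 151.9, and its detection p-values of 0.0545 and 0.0195 missed the threshold on both arrays. TREX1 gave 133.6 and 134.0, with detection p-values of 0.344 and 0.335. For CGAS and TREX1 a difference was not measurable at these signals. Their transcripts are not shown to be absent, since 1 probe each was read.

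The shared kinase and the constitutive transcription factor differed by less than 2-fold. TBK1 had a signal of 431.0 in wild-type and 464.0 in adapted cells, with a ratio of -0.16 that turned to 0.07 with median scaling and 0.14 without scaling between arrays, so no direction can be given. IRF3 had 504.2 and 393.7, a ratio of -0.77 or 1.71-fold lower. IRF3 was the lowest of the 7 genes with a fold, and 84.0% of the genes measured on both arrays had a higher ratio. Its ratio kept its sign in 10 alternative settings, from -0.78 to -0.48. In size the IRF3 ratio was above the 0.45 SD between different probes of 1 gene. Over all genes measured on both arrays the SD of the ratio was 0.90, so IRF3 lay within 1 SD of the ratios at large. Neither SD covers differences between cultures.

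IRF7, the interferon-inducible partner of IRF3, went the other way. Probe 1, annotated to NM_004029, gave a signal of 160.5 in wild-type cells (detection p-value 0.00779) and 308.2 in adapted cells. Its ratio was 1.76, or 3.39-fold higher, and 295 of 9188 genes (3.21%) had a higher one. Probe 2, annotated to the same transcript, gave 116.3 and 224.7 and was detected in adapted cells only, so there IRF7 was at least 2.03-fold higher, a bound that lay inside 2-fold under 4 alternatives: no background correction (0.38), the other background method (0.56), a larger offset (0.60) and the authors' processed values (0.98). Probe 3, annotated to NM_004031, was not detected on either array (132.6 and 122.7). Probes 1 and 2 both lay above 0, but detection of probe 2 in adapted cells only favours a value above 0.

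**Figure D2:**
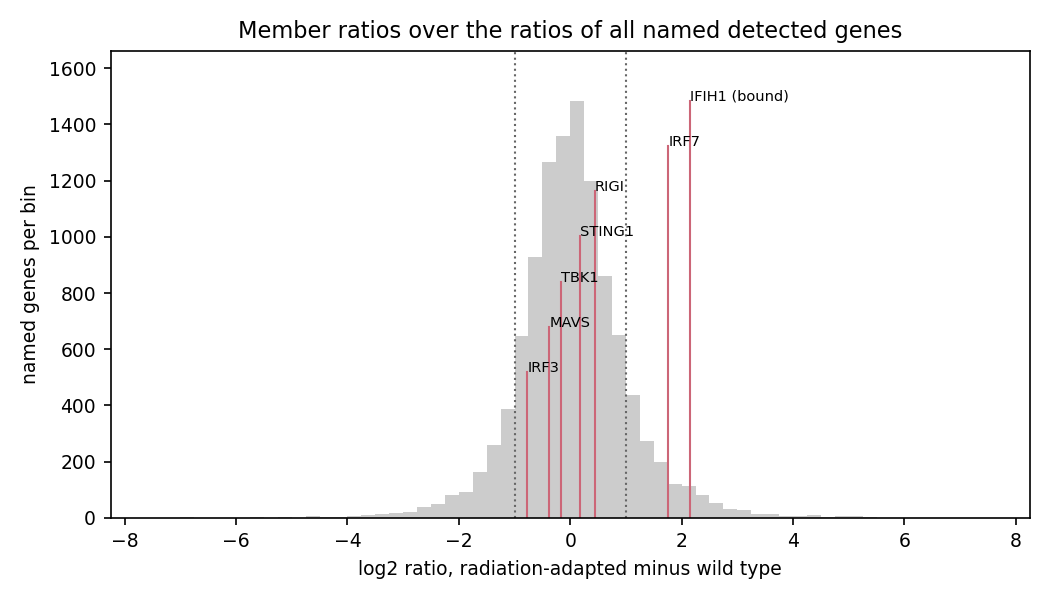
Log2 ratios (adapted minus wild type, x axis) of all named detected genes in bins of 0.25, with genes per bin on the y axis and the 7 sensing genes with a fold as red lines whose heights carry no value. Genes without a fold are left out, and the dotted lines mark 2-fold. Of the 7 lines, 5 stand between the dotted lines, and IRF7 (1.76) and IFIH1 (bound 2.15) stand to the right of them.

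The IRF7 call depended on how background was treated. Without background correction the ratio was 0.80 and no longer past 2-fold. It was 1.10 with another background method, 1.39 as the mean of the detected probes, 1.73 in the authors' processed values and 2.08 without scaling between arrays. The split of all genes past 2-fold also moved with scaling, from 54.6% higher in the main values to 67.0% with median scaling and 71.7% without scaling, where the median of all genes was 0.16 and 0.23. The calls of IFIH1 and IRF7 held under both of these scalings.

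**Figure D3:**
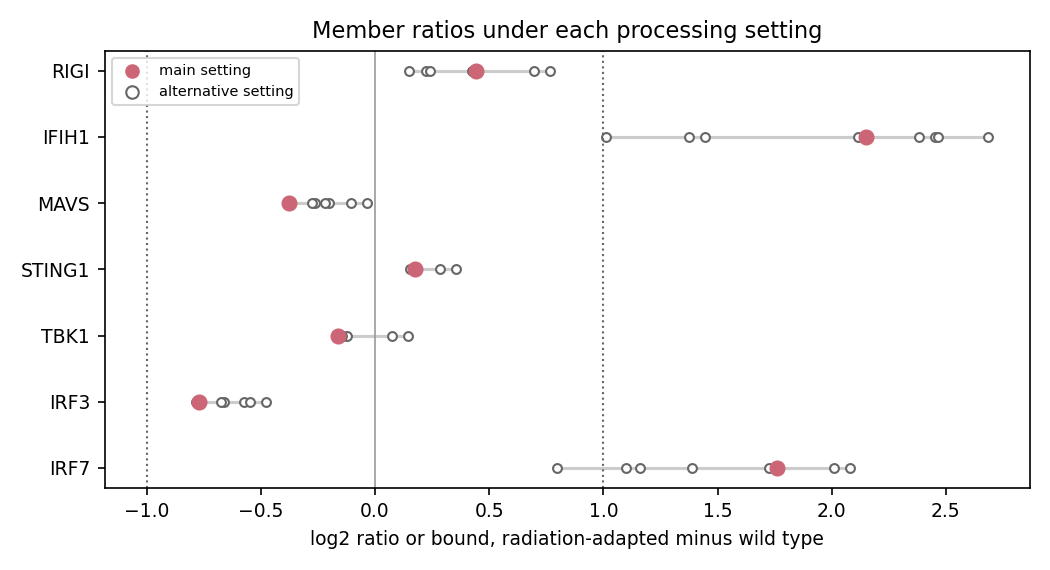
Log2 ratio or bound (adapted minus wild type) of the 7 sensing genes with a fold, in the main setting (filled) and in each alternative setting (open), with dotted lines at 2-fold. IRF7 has 1 open point inside the dotted line (0.80), IFIH1 has none, and the other 5 genes stay inside it throughout.

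Location on the chromosome was then compared, because neighbouring genes can shift together in a derived line. For each gene the 10 nearest named detected genes on either side were read. Around IFIH1 on chromosome 2, the median of the 20 neighbours was 0.18 and the highest value among them was 1.14, itself a bound (GALNT3, not detected in wild-type cells). The adjoining genes were GCA (0.63) and FAP, which was detected in wild-type cells only (bound -0.78). Around IRF7 on chromosome 11, the median was -0.09, although the adjoining PHRF1 had a ratio of 1.16. The highest neighbour was IFITM3 with 2.21, named after its value was seen. IRF7 was thus not the highest of its stretch, and whether location has a part in these ratios was not tested. For IFIH1 the order cannot be given, since it and GALNT3 are both bounds.

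IRF3 on chromosome 19 lay below a neighbour median of -0.35, between SCAF1 (0.43) and BCL2L12 (-0.45). TBK1 on chromosome 12 had a neighbour median of -0.26. RIGI, MAVS, STING1 and CGAS had neighbour medians of 0.05, -0.04, 0.03 and -0.05. The stretch around DHX58 on chromosome 17 had a median of -0.68. The lowest stretch was that of TREX1 on chromosome 3, with a median of -1.04 and 11 of 20 genes at least 2-fold lower, beside 10.3% of all genes. The 11 include the adjoining SHISA5 (-1.07), while ATRIP on the other side had -0.88. The median of this stretch became -0.60 without background correction, -0.78 with the other background method and -0.88 without scaling between arrays. TREX1 itself was below detection and gives no value to set beside them.

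**Figure D4:**
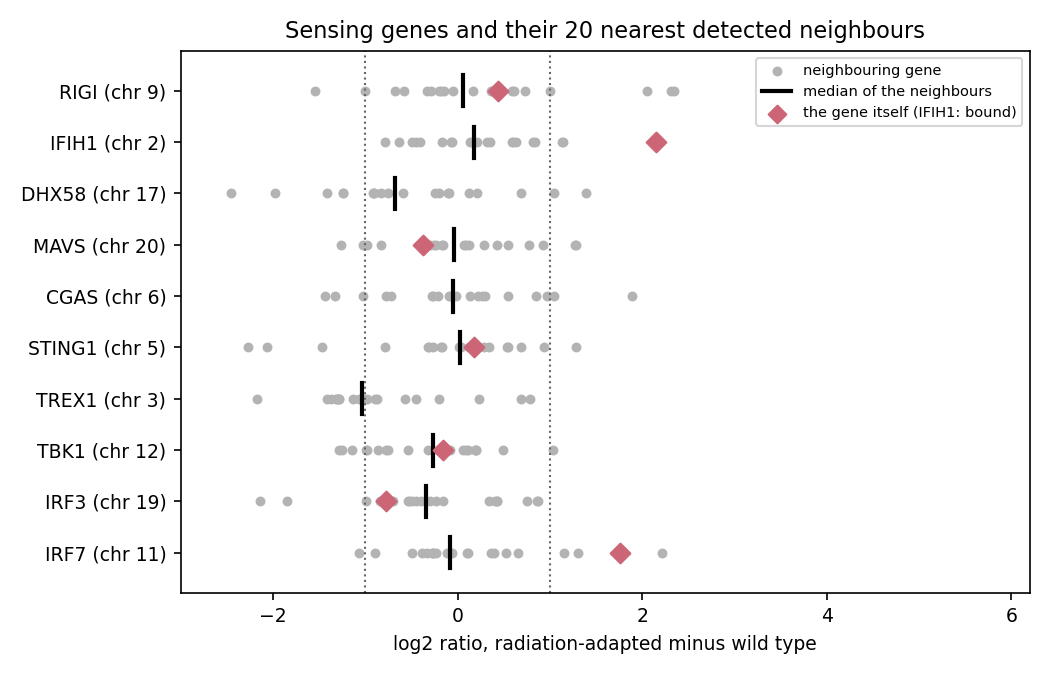
Log2 ratios or bounds (adapted minus wild type) of the 20 nearest detected genes of each sensing gene (grey), their median (black bar) and the gene's own ratio (red diamond, absent where no fold can be given). The IFIH1 diamond (bound 2.15) and its rightmost neighbour (1.14) are both bounds, and the TREX1 neighbours centre on -1.04.

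The genes around these 10 were read from 7 lists of 112 genes in all, of which 87 were detected, with 18 (20.7%) past 2-fold upward and 6 (6.90%) past it downward, beside 12.4% and 10.3% over all genes. The counts became 25 and 4 with median scaling and 25 and 3 without scaling, where 16.5% and 18.3% of all genes passed upward. Genes detected in adapted cells only can enter because they are high there. Detection on both arrays was met by 77 of the 87 at the probe used. With it required the counts were 12 and 5, beside 10.9% and 10.4% of all genes. With the other background method they were 12 and 4 of the 87, beside 8.1% and 6.6%. Among other nucleic acid sensors, of 18 detected, 7 (38.9%) passed 2-fold upward and 1 downward, and the median was 0.48. The 7 became 4 without background correction. They became 3 with detection required on both arrays, which 13 of the 18 met at the probe used. IFI16, a nuclear and cytosolic DNA sensor that can signal through STING, went from a signal of 134.3, not detected, to 1915.1. It was at least 36.3-fold higher in the adapted cells (log2 bound 5.18, and 3.52 without background correction). OAS3, which makes the second messenger that activates RNase L, went from 128.9, not detected, to 887.8 (at least 15.1-fold higher, log2 bound 3.91, and 2.37 without background correction). DDX60, a helicase reported to aid RIG-I signalling, went from 139.1, not detected, to 303.7 (at least 3.51-fold higher). The lower gene was HMGB1, a chromatin protein that also binds cytosolic nucleic acid, at 771.7 and 493.6 (2.04-fold lower), which was inside 2-fold under both other scalings, with the other background method and with the larger offset.

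Genes that destroy or edit self nucleic acid had a median of -0.50 over 8 detected members, which became -0.31 and -0.24 under the other scalings. None was at least 2-fold higher and 1 was lower, DNASE2, the lysosomal DNase, at 1259.5 and 700.9 (2.18-fold lower, but -0.96 on the log2 scale without scaling between arrays). ADAR, which edits RNA duplexes and so hides them from MDA5, was 1.60-fold higher at its brighter probe, and was named after its value was seen. The 17 detected adaptors and kinases around TBK1 had a median of -0.01, which became 0.29 and 0.36 under the other scalings. The counts were 1 higher and 2 lower, and became 3 higher and 1 lower under each of those scalings. FADD, a death-domain adaptor, was 2.95-fold higher. TRADD, a death-domain adaptor that joins the MAVS complex, was 3.54-fold lower, and its other detected probe had a ratio of -1.40. IKBKE, the closest relative of TBK1, was detected in wild-type cells only, at least 2.01-fold lower and inside 2-fold in 6 of its 9 alternative settings.

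Regulators of the RNA route held both activators and inhibitors among the higher genes. Of 17 detected, 4 (23.5%) passed 2-fold upward and 1 downward, and the 4 became 2 with the other background method or the larger offset and 1, TRIM25, without background correction. The median was -0.03 and became 0.07 and 0.14 under the other scalings. TRIM25, a ubiquitin ligase known to activate RIG-I, went from 463.7 to 1934.4 (4.60-fold higher). MARCHF5, a mitochondrial ubiquitin ligase that acts on MAVS, was 2.28-fold higher. ATG12, part of an autophagy conjugate that restrains RIG-I and MAVS, was 2.24-fold higher at its brighter probe, but the other probe had a ratio of -0.38, which gave 0.39 when both were averaged. RNF135, another ubiquitin ligase of RIG-I, was 2.59-fold lower, with -0.68 and -0.32 as the ratios or bounds of its other detected probes and a mean over probes of -0.79.

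Of 15 detected regulators of cGAS and STING, 2 (13.3%) passed 2-fold upward and 1 downward. The median was -0.05 and became 0.15 and 0.22 under the other scalings. TRIM32 and TRIM56, ubiquitin ligases reported to act on STING, were 3.04-fold and 2.29-fold higher. RNF5, a ubiquitin ligase that marks STING for degradation, was 2.42-fold lower (1074.2 and 568.2). Among 4 detected other interferon regulatory factors, 1 passed 2-fold upward, beside 12.4% of all genes. Under the other scalings 2 passed, beside 16.5% and 18.3%. With so few genes these counts are no result about the list. The median was 0.67, and became 0.37 without background correction and 0.25 with a looser detection filter. IRF8 was detected in adapted cells only, at least 2.08-fold higher. Without background correction, ATG12 (0.998), DDX60 (0.80), HMGB1 (-0.84), DNASE2 (-0.98), IKBKE (-0.34), MARCHF5 (0.68), RNF135 (-0.91), TRIM56 (0.75) and IRF8 (0.40) were inside 2-fold. MARCHF5 (0.87 and 0.90), TRIM56 (0.93 and 0.96) and IRF8 (0.58 and 0.62) were also inside it with the other background method and with the larger offset.

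**Figure D5:**
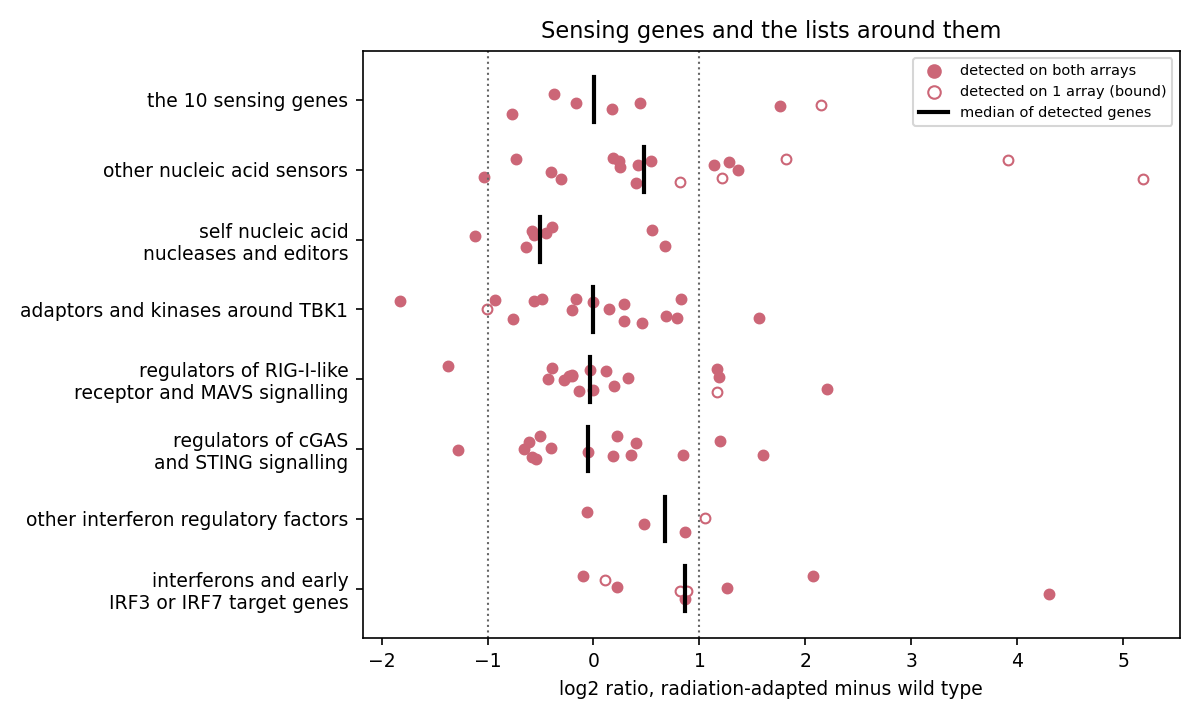
Log2 ratios (adapted minus wild type) of the detected genes of each list, filled where the gene was detected on both arrays and open where the value is a bound, with the list median as a black bar and 2-fold as dotted lines. Vertical scatter within a row carries no value. The IFI16 (bound 5.18), CXCL10 (4.30) and OAS3 (bound 3.91) points lie farthest right, and the list medians run from -0.50 to 0.86.

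At the output end, none of the 6 listed interferon genes was detected. Other interferon genes were not read, and undetected transcripts are not shown to be absent. The 6 interferon genes on the list, IFNA1, IFNB1, IFNL1, IFNL2, IFNL3 and IFNE, had 9 probes, and none reached a signal above 138.2 in wild-type or 137.8 in adapted cells. Genes that IRF3, IRF7 or interferon can switch on had 9 detected members, of which 8 lay above 0, beside 5593 of all 11352 genes. Detection was in adapted cells only for 3 of the 9, which favours values above 0, and on both arrays for 6 (median 1.06). Of the 9, 3 (33.3%) passed 2-fold upward and 0 downward, and the median was 0.86. The count became 6 under each of the other scalings, beside 16.5% and 18.3% of all genes. It became 5 with a looser or no detection filter, beside 12.25% and 9.07% of all genes. Without a filter all 15 listed genes enter, the 6 interferon genes among them, so that count is not out of 9. The median became 0.32 without background correction and 0.27 without a detection filter. CXCL10, a chemokine gene, went from 167.5 to 1334.0 (19.7-fold higher). IFIT2 went from 179.9 to 462.8 (4.21-fold higher) and IFIT1 from 225.9 to 450.0 (2.40-fold higher). Without background correction, their log2 ratios fell from 4.30 to 2.89, from 2.08 to 1.18 and from 1.26 to 0.79, and IFIT1 was also inside 2-fold with the other background method (0.97). ISG15, a ubiquitin-like interferon-stimulated gene, had 2463.3 and 2307.5, a ratio of -0.10, and was named after its value was seen.

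The ISRE letters were also read in the promoters of these surrounding genes, after their ratios were known. Of the 18 genes at least 2-fold higher, 16 had a promoter in the table, and 4 of these held a match: CXCL10, DDX60, IFIT1 and OAS3. Of the other 69 detected genes, 62 had a promoter and 6 held a match, among them ISG15. The windows of DDX60 (chr4:168318771-168318830, minus strand), OAS3 (chr12:112938306-112938365, plus strand) and CXCL10 (chr4:76023684-76023743, minus strand) are shown, with capitals again marking the match. They were chosen because they hold the match, so the letters they share with IFIH1 follow from the search. The matches of IFIT1 and of the 6 genes not past 2-fold upward are not printed.
DDX60: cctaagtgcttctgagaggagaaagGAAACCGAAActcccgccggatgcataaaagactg
OAS3: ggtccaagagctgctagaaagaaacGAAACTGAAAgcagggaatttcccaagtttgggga
CXCL10: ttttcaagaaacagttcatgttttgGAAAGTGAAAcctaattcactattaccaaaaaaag
The matches begin 53 bases before the start of DDX60, 143 before that of OAS3 and 221 before that of CXCL10. DDX60 and OAS3 each hold a further match that is not printed.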

How the data were processed

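Total RNA was labelled with biotin and hybridised to Illumina arrays, per the labels' protocols. The deposited unprocessed table holds a mean bead signal (intensity, linear, not background-subtracted or scaled, as its values show) and a detection p-value per probe, per the file headers. The authors' deposited processed table holds intensity values that are alike in distribution on both arrays. The steps that led to either are not given in the sources used here. Background was corrected and arrays were quantile-normalized with neqc in limma 3.58.1 (R 4.3.3, offset 16), giving log2 values. The offset shrinks ratios of dim probes. The code was tested on simulated data. Each gene took its brightest detected probe. A gene detected on 1 array gives a bound, against the higher of its own dim value and the lowest detected signal of that array. A gene whose bound falls on the wrong side of 0 has no fold but stays in medians. The platform annotation named 30113 probes with 1 gene and 8 with several, which were left out. The other 17202 are unnamed here. RefSeq (GRCh38.p14) matched 30074 by gene number. Of each list, the 3 highest and 3 lowest genes past 2-fold are named. Members and lists were chosen with earlier results of these data known, and the promoter motif after the ratios were seen. Alternatives covered background, scaling, detection, probe choice, offset and the authors' values.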

Additional observations from a re-analysis of the deposited data

How the results depend on the processing

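No paired analysis was possible because each group has 1 array. Of the 10 genes, 2 were at least 2-fold higher in the main setting and under 8 of 10 alternatives. The count was 1 without background correction, where IRF7 was lost, and 1 with detection required on both arrays, where IFIH1 has no value by construction. No gene of the 10 was at least 2-fold lower in any setting. For the surrounding lists, the counts of 18 higher and 6 lower became 9 and 2 without background correction, and 25 and 3 without scaling between arrays (25 and 4 with median scaling). They became 12 and 5 with detection required on both arrays, which 77 of the 87 genes met at the probe used. The cause was not tested. Over all genes, 1403 higher and 1168 lower became 919 and 752 with normexp and an offset of 50, and 686 and 554 without background correction. Of the single-gene, single-list and neighbour values under alternatives, none changed sign after being past 2-fold. Signal over background limits RIGI, IFIH1, DHX58, CGAS, TREX1 and IRF7, whose wild-type signals lay at or near the negative controls.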
